A study of Mus musculus with 10 samples.

Results

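The regions described here are stretches of the mouse genome whose strongest summit lay away from the ends of protein-coding genes. The rule places this summit and not the whole stretch. In each, the NF-kB subunit p65 was listed after stimulation in both regulatory T cells (Treg) and conventional T cells (Tconv). It was listed in neither cell type without stimulation. Overlapping peaks within each of the authors' 4 peak lists were merged, the 4 lists were then merged wherever they overlapped by at least 1 bp, and 11923 union regions resulted. Of these, 3274 (27.5%) were in both stimulated lists and neither unstimulated list. A region was kept as distal when its strongest summit lay more than 1 kb from every start and end of a protein-coding gene and inside a gene or within 50 kb of one. This left 2309 regions, which are 19.4% of all union regions (95% Wilson interval 18.7 to 20.1%) and are called distal gained regions below. They were thus selected on measured values, presence in or absence from the 4 lists, together with position, and neither is a finding.

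The study measured p65 (RelA) binding by chromatin immunoprecipitation and sequencing in T cells from spleens and lymph nodes of C57BL/6 mice. Stimulated Treg and stimulated Tconv were kept for 3 h on anti-CD3-coated plates with anti-CD28 in solution, Treg with IL-2 at 10 ng/ml and Tconv with IL-2 at 2 ng/ml. They are set against unstimulated Treg and unstimulated Tconv, whose culture and IL-2 are not given in the sources used here. Each of the 4 groups has 2 libraries, and 2 further libraries hold input chromatin mixed from all 4. The deposited data are 1 list per group that pools its 2 libraries. How far replicates differ is therefore not known, and no difference between groups was tested. The depth of the libraries is unknown. Cell type cannot be told apart from IL-2 concentration in the stimulated lists, and stimulation cannot be told apart from culture.

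NF-kB dimers are held in the cytoplasm by IkB proteins until a signal frees them. In T cells, the T cell receptor and CD28 act through the kinase PKC-theta to release p65 and c-Rel, which enter the nucleus and bind kB elements in promoters and enhancers. Many enhancers of stimulated T cells also hold elements for AP-1 (Fos and Jun dimers) and NFAT, which the same receptors switch on.

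The limits of the rule were sharp cuts through a continuum. Just inside the 1 kb limit lay regions in Camkk2 (1.006 kb from its nearer end, 10.5-fold over local background in the Treg list and 12.2-fold in the Tconv list) and beside Orai2 (1.007 kb, 16.1-fold and 15.2-fold). Just outside it lay regions in Thtpa (0.996 kb, 13.0-fold and 9.87-fold) and Cabcoco1 (0.994 kb, 27.6-fold and 11.4-fold). At the 50 kb limit, regions near Tmem26 (49.96 kb, 13.5-fold and 9.51-fold) and Ep300 (49.8 kb, 11.5-fold and 11.7-fold) were kept. Regions near Tmem65 (50.1 kb, 29.1-fold and 10.7-fold) and Otud7a (50.3 kb, 21.4-fold and 19.9-fold) were not. The weakest distal gained regions had a −log10 p of 27.2 in the stimulated Treg list and 38.1 in the stimulated Tconv list, while the unstimulated lists reach down to 15.1 in Treg and 13.3 in Tconv. The nearest unstimulated region of either list was a median of 61.8 kb away, and it was within 1 kb for 46 of the 2309 regions.

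Several distal gained regions lay beside genes of microRNAs, the short RNAs that repress messenger RNAs matching their seed (bases 2 to 8). A hairpin within 20 kb of the summit was found for 71 regions, and 63 of the 1005 hairpins in the RefSeq table for GRCm38.p6, the assembly of mm10, had such a region (6.27%). These counts were not made for all union regions or for other distal regions. They are therefore given without a background, and whether distal gained regions lie near hairpins more often than other regions was not tested. The mature sequences below, 5′ to 3′ with the seed in capitals, belong to the hairpins best known in T cells or NF-kB signalling and were chosen after the distances were seen.
miR-155-5p: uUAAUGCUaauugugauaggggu
miR-146a-5p: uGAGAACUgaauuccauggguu
miR-21a-5p: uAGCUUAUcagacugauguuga
miR-132-3p: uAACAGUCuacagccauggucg
miR-212-3p: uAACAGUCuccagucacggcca
miR-23a-3p: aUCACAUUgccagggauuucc
miR-27a-3p: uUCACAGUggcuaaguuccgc
let-7i-5p: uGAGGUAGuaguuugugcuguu

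Of these, miR-132-3p and miR-212-3p share the seed AACAGUC, and each of the others has its own. One region spanning chr11:75171727-75174028 of mm10 lay beside both, with its summit 21 bp from the Mir132 hairpin and 183 bp from Mir212 (13.0-fold in the Treg list and 10.9-fold in the Tconv list). Mir155, whose product is needed for Treg fitness and for effector responses, had a pair of regions. Their summits were 0.982 kb (31.1-fold in Treg and 11.6-fold in Tconv) and 11.0 kb (35.6-fold and 15-fold) from the hairpin, and by the gene rule both are assigned to Mrpl39, the nearest protein-coding gene. For Mir146, which encodes miR-146a, a brake on the adaptor TRAF6, the summit was 14.0 kb away (33.9-fold in Treg and 21.3-fold in Tconv). For Mir21a the stronger of its regions was inside Vmp1, 12.2 kb from the hairpin (63.0-fold and 24.5-fold), and for Mirlet7i the stronger one was 1.30 kb away (27.8-fold and 11.8-fold). The Mir23a, Mir27a and Mir24-2 cluster had one at 4.76 kb from Mir23a (47.4-fold in Treg and 30.5-fold in Tconv). The weaker of the pair at Mirlet7i, 2.54 kb away, had 7.82-fold in Treg and 8.95-fold in Tconv, so the folds at these loci differ widely.

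The sequence of the regions as a whole was not analysed here, but 65 of them had their summit within a 300-base promoter window of the RefSeq table (250 bases before an annotated start and 50 after it). These are starts that the table of gene ends does not show, being alternative starts of protein-coding genes in 42 cases and starts of other genes in the rest. The stretches below run 5′ to 3′ on the strand of the named gene, cover at most 60 bases on either side of the summit, and stop at the annotated start. They show regions at immune genes, or with a kB-like match, and were chosen after the sequences were seen. Capitals mark matches on either strand to GGG and CC with any 5 bases between them or to GGAANNNCC. Both are loose and partly overlapping forms of the kB element. Capitals also mark TGANTCA, a loose form of the AP-1 element that allows any base in the middle. Of all 48 such stretches of at least 60 bases, 24 held a kB-like match and 7 an AP-1 match.
Tnfrsf9, chr4:150927871-150927991, plus strand: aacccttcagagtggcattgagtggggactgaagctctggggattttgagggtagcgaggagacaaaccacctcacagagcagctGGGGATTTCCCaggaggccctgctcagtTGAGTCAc
Slamf7, chr1:171649031-171649151, minus strand: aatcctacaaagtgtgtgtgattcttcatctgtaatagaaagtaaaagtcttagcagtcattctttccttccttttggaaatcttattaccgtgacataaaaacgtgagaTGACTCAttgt
Lax1, chr1:133690039-133690159, minus strand: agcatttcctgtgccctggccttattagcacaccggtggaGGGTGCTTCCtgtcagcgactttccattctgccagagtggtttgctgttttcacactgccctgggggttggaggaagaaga
Ppt2, chr17:34627460-34627580, minus strand: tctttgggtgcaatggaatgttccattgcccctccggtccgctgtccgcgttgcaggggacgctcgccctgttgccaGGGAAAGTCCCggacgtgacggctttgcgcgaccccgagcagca
Gm32249, chr11:99168214-99168311, plus strand: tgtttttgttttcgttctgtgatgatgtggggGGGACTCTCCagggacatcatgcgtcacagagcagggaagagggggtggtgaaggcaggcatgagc

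Tnfrsf9 encodes the co-stimulatory receptor 4-1BB, and its summit lay 68 bp before the annotated start (19.9-fold in the Treg list and 13.6-fold in the Tconv list). Its stretch holds overlapping kB-like matches, and an AP-1 match closer to the start. Slamf7, a receptor of the SLAM family, has an AP-1 match and no kB-like match in its stretch (25.9-fold in Treg and 12.3-fold in Tconv). Lax1, an adaptor that limits T cell receptor signals, had 19.6-fold in Treg and 13.2-fold in Tconv, and Ppt2 had 24.9-fold and 18.9-fold. The noncoding gene Gm32249 lies near Ccr7, whose product guides T cells into lymph nodes, and its region (29.7-fold in Treg and 14.7-fold in Tconv) was 13.2 kb from the nearest end of Ccr7.

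Over the full 300-base windows, TGANTCA was found on either strand in 13 of the 65 windows at distal gained regions (20%, 95% Wilson interval 12.1 to 31.3%). It was found in 15 of 351 windows at gene-end regions gained in both cell types (4.27%, 2.61 to 6.93%), in 5 of 110 at distal regions of the stimulated Treg list alone (4.55%, 1.96 to 10.2%) and in 4 of 96 at distal regions of all 4 lists (4.17%, 1.63 to 10.2%). Of all 32851 promoter windows, 7.81% hold it. In the protein-coding windows alone the counts were 7 of 42 at distal gained regions (16.7%, 8.32 to 30.6%) and 15 of 336 at gene-end gained regions (4.46%, 2.72 to 7.23%). For the kB forms, the shares at distal gained regions lay between those at gene-end gained regions and those of all windows, and below those at both other distal classes. The longer form, GGG and CC around 5 bases, was in 63.1% of the 65 windows (50.9 to 73.8%) against 72.1% at gene-end gained regions and 50.8% of all windows, and GGAANNNCC was in 27.7% against 33.6% and 18.5%. At distal regions of the stimulated Treg list alone the longer form was in 65.5% and GGAANNNCC in 35.5%. At distal regions of all 4 lists these were 69.8% and 30.2%. TGTGGT, the Runx element, was in 15 of 65 (23.1%, 14.5 to 34.6%) against 16.0% at gene-end gained regions and 16.8% of all windows. It was in 10.9% at distal regions of the stimulated Treg list alone and 9.38% at distal regions of all 4 lists. A match describes letters in a window and is not a measured site, and these 65 regions, each at an annotated start, are a small and particular share of the 2309.

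Most distal gained regions had their summit inside a gene. The summit was inside a protein-coding gene for 1480 regions (64.1%, 62.1 to 66.0%) and outside for 829. Inside genes, the nearer gene end was a median of 17.2 kb away (quartiles 6.12 and 41.0 kb, at most 575.7 kb). Outside genes, the nearest gene body was a median of 11.0 kb away (quartiles 4.30 and 22.8 kb). The share inside was 67.0% for the 3349 distal regions of the stimulated Treg list alone and 69.5% for the 416 distal regions of all 4 lists.

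By summed rank in both lists, the strongest distal gained regions lay at Lrrfip1, Gadd45b, Spry1 and Zap70, and by Treg fold alone at Rasgrp1. Fold enrichment here is the authors' value for the strongest summit over its local background, and regions were ranked by it within each list. At Rasgrp1, which activates Ras downstream of the receptor, the region lay 47.4 kb outside the gene at chr2:117389626-117391220 and had 99.6-fold in the Treg list and 42.8-fold in the Tconv list. Inside Zap70, the kinase recruited to the receptor's zeta chains, chr1:36768440-36769495 had 90.2-fold in Treg and 48.2-fold in Tconv, and its summits in the lists coincided.

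The strongest regions at Gadd45b, Spry1 and Lrrfip1 had higher Tconv folds than those at Rasgrp1 and Zap70. Outside Gadd45b, a stress-induced regulator of MAP kinases, chr10:80938904-80941629 had 89.5-fold in Treg and 55.6-fold in Tconv. Outside Spry1, an inhibitor of Ras signalling, chr3:37653528-37655208 had 86.1-fold and 61.4-fold. Inside Lrrfip1, chr1:91092772-91096257 had 83.8-fold and 62.4-fold, the highest Tconv fold among the distal gained regions, and a neighbouring region of the same gene had 63.7-fold and 44.6-fold. Regions outside Thy1, a surface protein of all T cells (74.7-fold in Treg and 51.4-fold in Tconv), and inside Icos, a co-stimulatory receptor (72.4-fold and 46.0-fold), Egr2, an immediate-early transcription factor (69.8-fold and 48.7-fold), and Ptprc, which encodes CD45 (69.0-fold and 45.9-fold), were also among the strongest 16. The others of the leading 15 lay at Nsmce2, Jarid2, Gramd1b, Lbh, Wdr95, Arhgef3 and Ndfip1, with 63.1 to 80.2-fold in Treg and 43.0 to 51.2-fold in Tconv.

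The lists placed the same regions at nearly the same base and ranked them alike only in part. The strongest summits of the stimulated Treg and Tconv lists were a median of 13 bp apart, within 25 bp for 77.2% of regions and within 50 bp for 91.6%. For the 680 gene-end gained regions the median was 17 bp and 68.4% were within 25 bp. For distal regions of all 4 lists these were 14 bp and 70.9%. Across the 2309 regions, which share 1 pooled list on each side, log2 fold in Treg and in Tconv had a Pearson correlation of 0.72 and a Spearman correlation of 0.66, given as a description. Of the 100 highest of the 2309 in each list, 59 were in common. The Spearman correlation was 0.66 for gene-end gained regions and 0.84 for distal regions of all 4 lists.

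**Figure D1:**
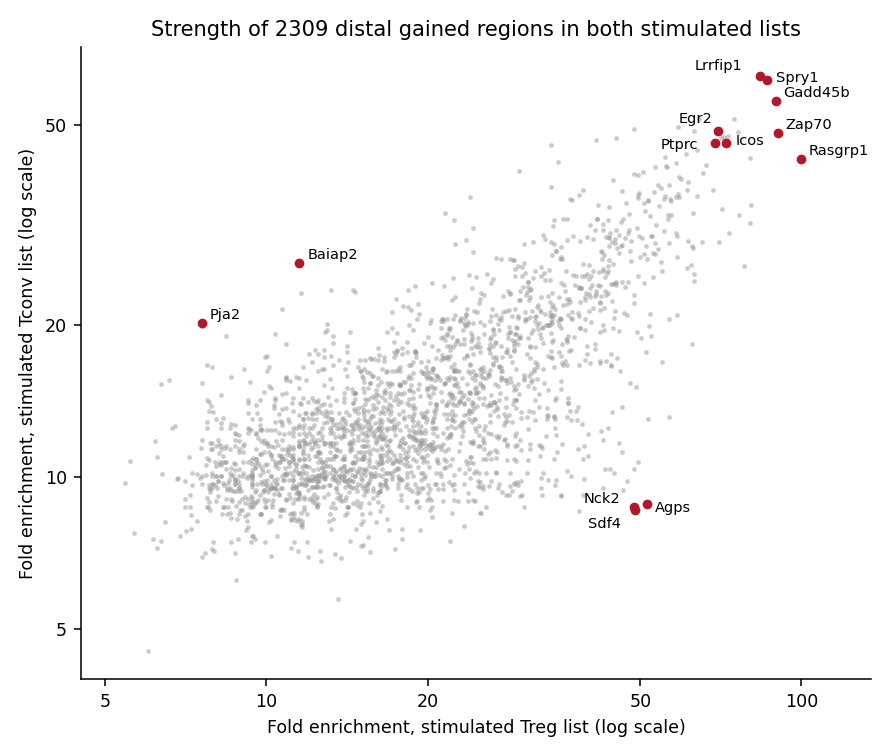
Fold enrichment of each distal gained region in the stimulated Treg list (horizontal, log scale) against the stimulated Tconv list (vertical, log scale); each of the 2309 grey points is 1 region, and red points are named regions. Lrrfip1, Spry1, Gadd45b, Zap70 and Rasgrp1 lie at the top right, while Agps, Nck2 and Sdf4 have 48.6 to 51.5-fold in Treg beside 8.61 to 8.85-fold in Tconv.

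Some regions ranked high in one list and low in the other. The ranks below are among the same 2309 regions in each list. Toward Treg, the widest gaps were inside Sdf4 (rank 113 in Treg and 2205 in Tconv), inside Agps (91 and 2164) and inside Nck2, an adaptor of receptor signalling (116 and 2183). They were followed by regions outside Samsn1 (266 and 2211) and outside Hif1a, the hypoxia-inducible transcription factor (134 and 2042). Toward Tconv, the widest gaps were outside Pja2 (rank 2270 in Treg and 396 in Tconv), and inside Gtf2i (2270 and 414), Shld1 (2195 and 462), Baiap2 (1847 and 175) and Pdlim4 (2262 and 624). With 1 list per cell type, no error can be put on these gaps.

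The 2309 regions were assigned to 1351 protein-coding genes, those whose body was nearest, which is 6.17% of the 21883 genes in the table. A single region was found at 873 of them, and 207 genes (0.946% of all) had 3 or more, holding 894 regions (38.7%). Bach2, which encodes a repressor that keeps T cells quiescent and supports Treg formation, had the most, with 16 regions, 15 of them inside the gene. The strongest of these had 53.9-fold in Treg and 38.1-fold in Tconv, the weakest in Treg had 7.57-fold, and the medians were 19.8-fold and 15-fold. Foxp1, a factor of naive T cells, had 14 regions inside its 597.4 kb, the strongest with 59.5-fold in Treg and 39.0-fold in Tconv.

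Akap13, an anchoring protein for kinase A, and Arhgef3 had 13 regions each, and Ptprc had 11. Cblb, a ubiquitin ligase that raises the threshold of T cell activation, had 10 regions, all inside the gene, with 9.73 to 49.6-fold in Treg and 9.57 to 26.5-fold in Tconv. Prkcq, which encodes PKC-theta, also had 10, of which 6 were inside, with 9.39 to 36.4-fold and 8.06 to 20.1-fold. Inpp4b and Pip4k2a, enzymes of phosphoinositide metabolism, had 10 each. Long genes had a region more often: 1.94% of genes spanning under 10 kb had at least 1, 5.31% of those from 10 to 30 kb, 9.83% of those from 30 to 100 kb, and 14.6% of those of 100 kb or more.

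**Figure D2:**
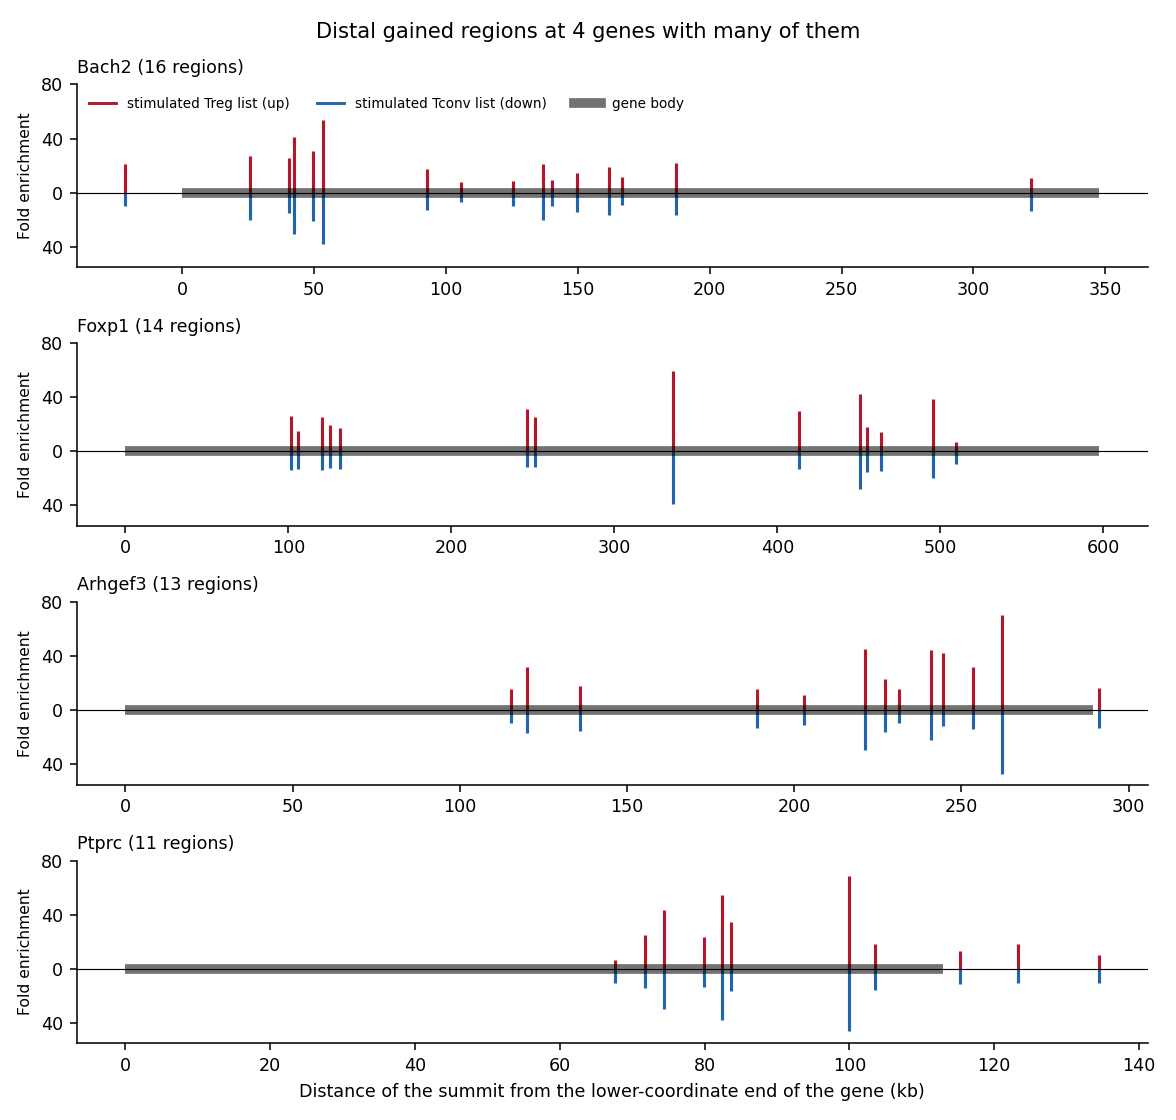
Distal gained regions at Bach2, Foxp1, Arhgef3 and Ptprc, placed by the distance of the summit from the lower-coordinate end of the gene (horizontal, kb); red lines upward give fold enrichment in the stimulated Treg list, blue lines downward in the stimulated Tconv list, and the grey bar is the gene body. The regions of a gene differ widely in height: those of Bach2 run from 7.57-fold to 53.9-fold in Treg and from 6.96-fold to 38.1-fold in Tconv.

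Some of the regions lay close to one another along the genome. Linking summits up to 12.5 kb apart put 905 regions (39.2%) into 362 groups of 2 or more, of which 115 held 3 or more and 38 held 4 or more. The same share was not computed for all union regions or for other distal regions, so 39.2% is given without a background. The fullest group had 8 regions over 47.1 kb inside Pip4k2a. Groups of 7 lay in Arhgef3 (41.1 kb), at Lbh (36.8 kb) and near Lonrf1 and Prag1 (29.3 kb), and groups of 6 in Ptprc (16.0 kb), Wipf1 (23.8 kb) and Bach2 (41.4 kb). At Fasl, which encodes the death ligand of activated T cells, 5 of its 6 regions formed a group over 31.4 kb, led by one 19.0 kb outside the gene with 51.7-fold in Treg and 35.2-fold in Tconv.

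Of the 15 gene lists, 13 cover T cell biology and the others hold B cell and myeloid markers and ribosomal proteins. Some genes stand in several lists, so the lists are not separate. Among the 30 genes of proximal T cell receptor signalling, 24 had at least 1 region (80%, against 6.17% of all protein-coding genes), with 74 regions in all and 3 or more at 9 genes. Their median span was 49.0 kb, where genes of 30 to 100 kb had a region in 9.83% of cases. Beside Zap70, Rasgrp1, Cblb and Prkcq, they included the diacylglycerol kinase genes Dgka (51.6-fold in Treg and 35.4-fold in Tconv) and Dgkz (45.6-fold and 27.8-fold), whose products end the signal that Rasgrp1 reads. They also included the phosphatase gene Ptpn22 (49.5-fold and 36.3-fold), the zeta chain gene Cd247 (41.5-fold and 32.5-fold) and the adaptor gene Lcp2 (35.8-fold and 32.6-fold). The genes without one were Cd3e, Cd3d, Cd3g, Txk, Bcl10 and Sos1. Over these 74 regions the median fold was 20.6 in Treg and 13.2 in Tconv, against 18.1 and 12.7 over all 2309.

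**Figure D3:**
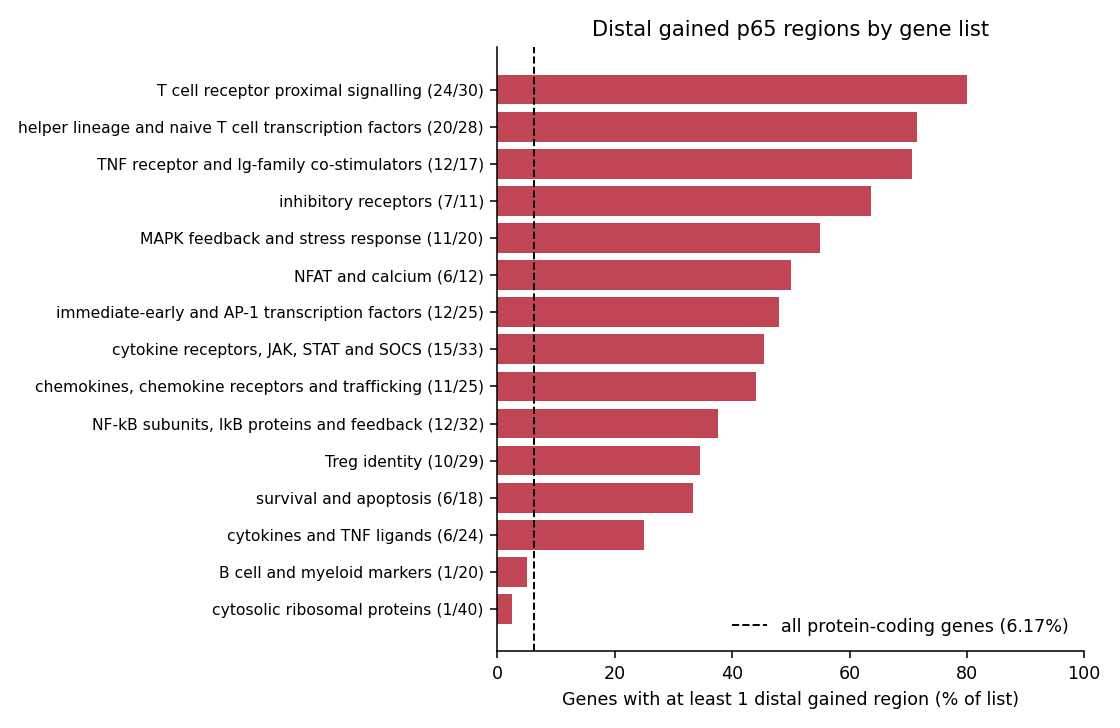
Share of the genes of each list with at least 1 distal gained region (horizontal, percent of the list; counts in parentheses), with the share of all 21883 protein-coding genes, 6.17%, as a dashed line. T cell receptor genes reach 80%, while B cell and myeloid markers (5.0%) and ribosomal protein genes (2.50%) lie below the line.

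Downstream branches had a region at lower shares of their genes, but gene length differed between the lists. Median spans were 4.76 kb in the MAP kinase list, 10.5 kb in the immediate-early list and 96.5 kb in the NFAT list. A region was found at 1.94% of all genes spanning under 10 kb, 5.31% from 10 to 30 kb and 9.83% from 30 to 100 kb. The shares of the lists were not compared at equal length. Of 20 MAP kinase feedback and stress genes, 11 had a region, including, besides Spry1 and Gadd45b, the phosphatase genes Dusp5 (40.5-fold in Treg and 25.1-fold in Tconv) and Dusp6 (29.1-fold and 25.9-fold). Of 12 NFAT and calcium genes, 6 did, with Orai1, the pore of the calcium channel, at 45.5-fold in Treg and 30.3-fold in Tconv and Nfatc1 at 58.3-fold and 42.0-fold. Of 25 immediate-early and AP-1 genes, 12 did, with Nr4a2 at 65.2-fold and 29.3-fold, Irf4 at 56.5-fold and 29.2-fold and Fosl2 at 40.2-fold and 31.6-fold.

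The NF-kB family and its feedback genes had distal gained regions at 12 of 32 genes (37.5%), with a median span of 26.7 kb, and genes of 10 to 30 kb had a region in 5.31% of cases. The subunit gene Rel had the strongest (61.2-fold in Treg and 37.2-fold in Tconv), then Tnfrsf1b, which encodes TNF receptor 2 (48.6-fold and 23.0-fold), Nfkb1 with 5 regions (strongest 34.3-fold and 22.0-fold) and Tnfaip8 (45.7-fold and 16.2-fold). Tnfaip3, which encodes the deubiquitinase A20, also had 5, none above 24.1-fold in Treg. A region of any list lay within 1 kb of the start or end of 24 of the 32 NF-kB genes, against 22.2% of all protein-coding genes, and an unstimulated one at 16, against 13.3%. For the T cell receptor genes these counts were 15 of 30 and 4 of 30, the second being no higher than among all genes.

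Surface receptors of co-stimulation had a region at 12 of 17 genes (70.6%). When every gene within 50 kb of a region was counted, this list had 15 of 17 and the T cell receptor list 24 of 30, so the order of their shares depends on how regions are assigned. That count takes in 2946 of all 21883 protein-coding genes in place of 1351, so 6.17% is not its background. Slamf1 had 4 regions (strongest 70.9-fold in Treg and 34.1-fold in Tconv), Cd28 had 5 (31.7-fold and 16.9-fold), and Cd27 had 2 (46.0-fold and 32.1-fold). Of 11 inhibitory receptor genes, 7 had one, led by Vsir, which encodes VISTA (66.3-fold in Treg and 41.7-fold in Tconv), and including Pdcd1, which encodes PD-1 (32.1-fold and 16.6-fold). Cytokine receptor, JAK, STAT and SOCS genes had one at 15 of 33, with Il21r (55.5-fold and 43.2-fold), Il4ra (55.7-fold and 36.2-fold), Stat5b (50.5-fold and 40.2-fold) and Il2ra, the high-affinity IL-2 receptor chain (49.3-fold and 19.4-fold). Cytokines and TNF ligands had one at 6 of 24, among them Tnfsf8 (58.9-fold in Treg and 36.0-fold in Tconv), Lif (45.1-fold and 24.4-fold) and Ifng, 21.8 kb outside the gene (34.7-fold and 28.0-fold).

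Transcription factors of naive and helper T cells had a region at 20 of 28 genes (71.4%), with 64 regions in all. After Foxp1 these were led by Lef1 (56.1-fold in Treg and 41.2-fold in Tconv), Klf2 (56.5-fold and 37.9-fold) and Foxo1 (53.3-fold and 41.3-fold), which maintain the naive state, and by Ets1 (49.9-fold and 27.3-fold). This list has long genes, with a median span of 69.4 kb. Of the factors of helper and effector lineages, Tbx21 and Eomes had none, and Gata3 had 2. The survival genes had one at 6 of 18, led by Cflar, an inhibitor of caspase-8 (34.4-fold and 28.9-fold), and the chemokine and trafficking genes at 11 of 25, led by Rgs2 (45.9-fold and 28.8-fold) and Cxcr4 (42.6-fold and 31.8-fold).

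The Treg identity list had a region at 10 of 29 genes, among them Icos, Irf4, Il2ra and Capg (33.1-fold in Treg and 29.7-fold in Tconv). With each list cut to the length of the shortest, the count was 6. Icos, Irf4, Il2ra, Tnfrsf9, Gata3, Ccr8 and Cd83 are also counted in other gene lists. A further 14 of the 29 had no distal gained region but a distal region in the stimulated Treg list alone, against 5.43% of all protein-coding genes. Over the 19 distal gained regions of this list the median fold was 32.8 in Treg and 14.2 in Tconv, against 18.1 and 12.7 over all 2309. The strongest region of each gene ranked in both ways. That of Itgae, which encodes the integrin CD103, was at 328 in Treg and 2087 in Tconv. Those of Icos, Irf4, Il2ra, Tnfrsf9 and Cd83 also ranked higher in Treg. That of Capg was at 394 and 122 and that of Prdm1, which encodes the repressor Blimp-1, at 919 and 240. Those of Gata3 and Ccr8 also ranked higher in Tconv. Markers of other cells that spleen and lymph nodes hold were near the background: 1 of 20 B cell and myeloid markers had a region, 7.88 kb outside Klrb1c, which encodes a receptor of natural killer cells (16.3-fold in Treg and 10.6-fold in Tconv). Of 40 ribosomal protein genes, 1 had one, 42.5 kb outside Rpl11. A p65 region beside a gene does not measure its expression, and nearest-gene assignment can name the wrong gene.

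Genes with a distal gained region had p65 at their own ends more often than other genes. Of the 1351 genes, 592 (43.8%) had a region of any list with its summit within 1 kb of their start or end, against 20.8% of the 20532 genes without a distal gained region. For 317 (23.5%) such a gene-end region was in an unstimulated list, against 12.6% of the other genes and 13.3% of all 21883. A further 140 (10.4%) had a gene-end region in both stimulated lists and in neither unstimulated list, against 2.98% of the other genes. Among the 207 genes with 3 or more distal gained regions, the shares were 22.2% and 15.9%. Among genes without a distal gained region, those with a distal region of the stimulated Treg list alone had 20.3% and 7.4%, and those with a distal region of all 4 lists had 11.9% and 3.35%. At a −log10 p cut-off of 38.1 in every list, 8.84% of genes with a distal gained region and 6.44% of all genes had an unstimulated gene-end region. Genes with a distal gained region were longer, with a median span of 48.7 kb against 17.2 kb for all genes, and the part of length in these shares was not tested.

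**Figure D4:**
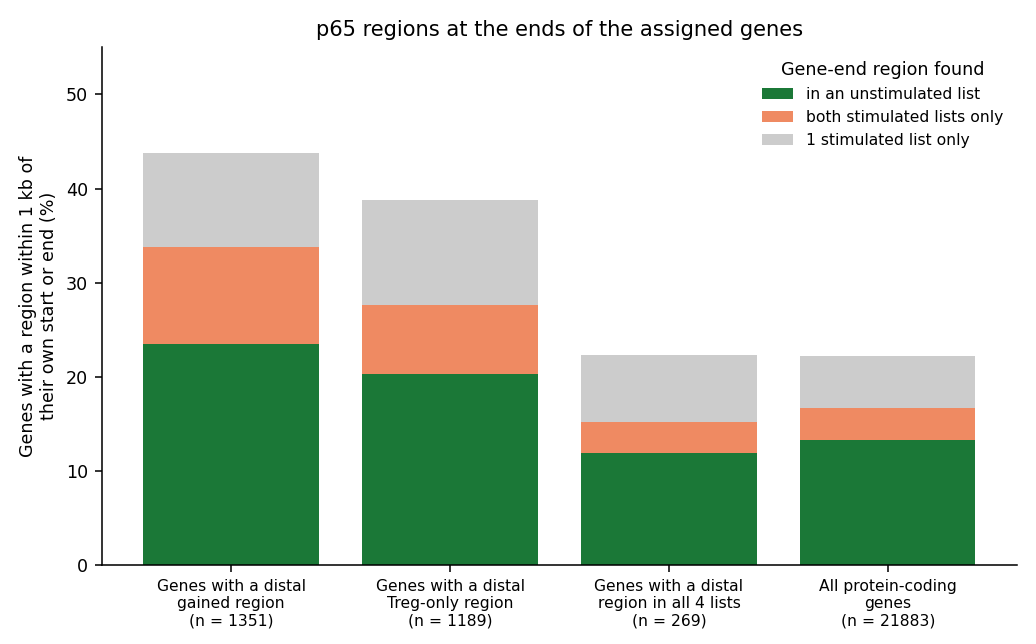
Share of genes with a p65 region within 1 kb of their own start or end (vertical, percent), for genes with a distal gained region, genes with a distal region of the stimulated Treg list alone or of all 4 lists and no distal gained one, and all protein-coding genes; colours give the lists that hold the gene-end region. The first bar totals 43.8% and the last 22.2%.

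Distal gained regions made up a large part of the strong Treg peaks. They were 561 of the 1089 regions (51.5%) in the strongest 10% of the stimulated Treg list, 21.2% of that whole list and 43 of the weakest 1089 (3.95%). In the shorter stimulated Tconv list they were 220 of the strongest 568 (38.7%), 40.6% of the whole list and 289 of the weakest 568 (50.9%). Their median fold in Treg was 18.1 (quartiles 12.4 and 27.8), against 13.3 for gene-end gained regions, 17.1 for distal regions of all 4 lists and 9.58 for distal regions of the stimulated Treg list alone. With each list cut to the length of the shortest, the Treg median of the distal gained regions was 28.2. In Tconv it was 12.7 at full length (quartiles 10.3 and 17.3), against 11.4 for gene-end gained regions and 15.9 for distal regions of all 4 lists. A second summit was present in 23.0% of the distal gained regions in Treg and in 9.83% in Tconv, against 35.3% and 23.1% of distal regions of all 4 lists, which were also wider (median 1446 bp in Treg, against 1071 bp). Being listed in both cell types is part of the rule and favours strong regions, so these values describe the regions and are not a test.

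**Figure D5:**
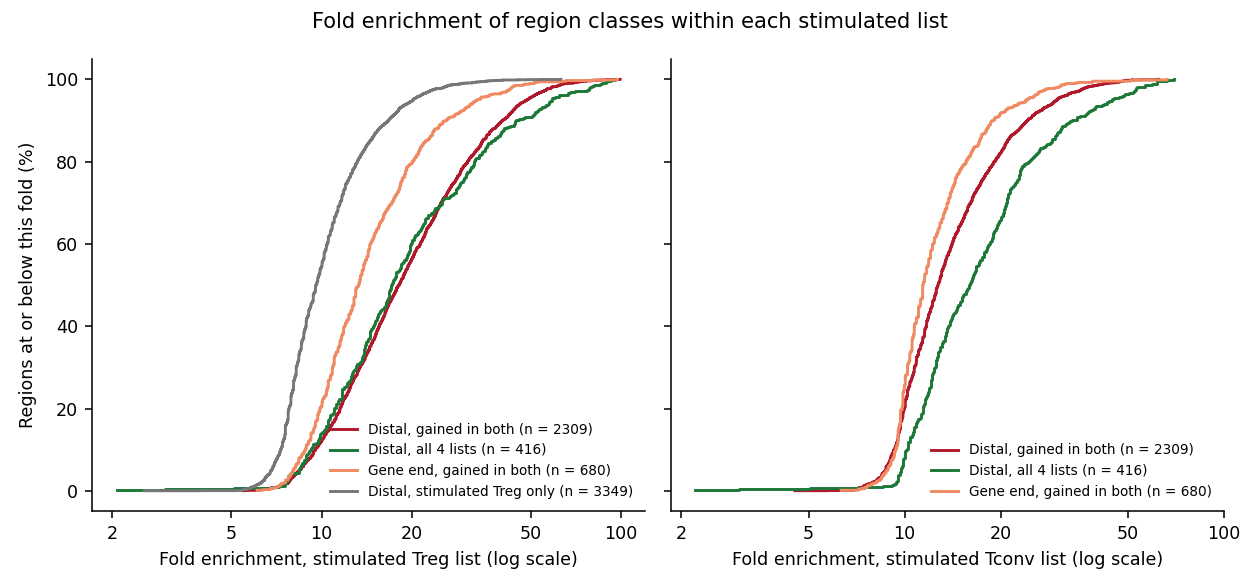
Cumulative share of regions (vertical, percent) at or below a fold enrichment (horizontal, log scale) in the stimulated Treg list (left) and the stimulated Tconv list (right), for distal gained regions, distal regions of all 4 lists, gene-end gained regions and, in Treg, distal regions of that list alone. The median Treg fold is 18.1 for distal gained regions and 9.58 for distal regions of the stimulated Treg list alone.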

How the data were processed

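Per the submitters' processing notes, which give no roles, the tools were MACS2 2.1.1.20160309, BWA 0.7.15-r1140 and Trim Galore 0.4.1, and the build was mm10. By their names, the 4 deposited lists, which have no header, hold pooled peaks after removal of a blacklist and a conservative IDR (reproducibility) step. The deposited fold (a ratio over local background) and −log10 p are the authors' values. The deposited score was not used. The lists give no read counts, so depth is unknown, and a deeper library would give a longer list.

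Regions, union regions and distances were computed in Python 3.11.15 with pandas 2.3.3. Gene ends, promoters and microRNAs came from RefSeq tables for GRCm38.p6, with 350 of 350 list genes matched. Promoters of chromosome 18 (63 regions) were not analysed here, and the hairpin counts leave out that chromosome. The planned motif search in the regions needs a genome and was not run. Union regions were checked against bedtools. Wilson intervals cover counting error only; regions are neither replicates nor independent. Named genes are those of the strongest regions by summed rank, those with most regions, up to 4 per gene list, and the widest rank gaps; some others were chosen after their values were seen. Members and lists were chosen with earlier results of these data known. Some results are not reported here.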

Additional observations from a re-analysis of the deposited data

How the results depend on the processing

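No paired analysis was possible because each group has 1 pooled list and no value per library, and for the same reason no replicate could be left out. The planned motif searches in windows around the summits were not run, since no genome sequence was used here. The number of distal gained regions was 2309 and fell to 1014, at 688 genes, when each list was cut to the 2961 regions of the shortest list, where fewer regions remain by construction. Taking every gene within 50 kb gave 2946 genes in place of 1351. The share inside genes (64.1%) was 66.1% beyond 5 kb from a gene end, 79.0% within 10 kb of a gene and 58.5% within 200 kb. The median fold of 18.1 in Treg and 12.7 in Tconv was 19.5 and 13.4 with every list limited to a −log10 p of at least 38.1, and 28.2 and 18.2 with equal lengths. The Spearman correlation of fold (0.66) was 0.69 at that cut-off and 0.69 with equal lengths. The share of genes with an unstimulated gene-end region (23.5%) was 8.84% at that cut-off, where the unstimulated lists are shorter, and 26.7% (14.8% of all genes) with gene ends of 2 kb. The other 49 values of the number of regions and genes, the share inside, the correlation and the gene-end share stayed within 1.5 times or within the interval of the reported value, including without the 235 regions within 1 kb of a noncoding gene end or another annotated start, a setting chosen after seeing the data. Across all settings 18 to 24 of the 30 T cell receptor genes, 10 to 15 of the 17 co-stimulators, 14 to 21 of the 28 helper and naive factors, 7 to 16 of the 32 NF-kB genes (7 beyond 5 kb from a gene end), 6 to 12 of the 29 Treg identity genes, 0 to 3 of the 20 B cell and myeloid markers and 0 to 6 of the 40 ribosomal protein genes had a region. The unknown depth and the single list per group limit every value.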

Other observations

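Distance was measured to protein-coding genes, and 143 of the 2309 distal gained regions (6.19%) lay within 1 kb of the start or end of a gene of another kind, 116 of them long noncoding RNA genes. The strongest were beside Gm15558, inside Clec16a (58.8-fold in the stimulated Treg list and 49.4-fold in the stimulated Tconv list), beside 1700012D01Rik near Nab2, which encodes a corepressor of Egr factors (61.4-fold and 38.4-fold), and beside Gm32903 near Sh3gl3 (80.2-fold and 32.0-fold). Of the 2246 regions on chromosomes that the promoter table covers, 98 (4.36%) lay within 1 kb of an annotated start of a protein-coding gene that is not one of its outer ends. Neither share was computed for all union regions or for other distal regions, so both are given without a background.

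Gene segments of the T cell receptor loci also carried such regions. One lay 266 bp from the joining segment Traj20 (24.5-fold in Treg and 12.5-fold in Tconv) and one 359 bp from Traj6 (12.2-fold and 9.14-fold), both assigned to Dad1 by the nearest-gene rule. Another lay 110 bp from the variable segment Trbv31 (8.0-fold in Treg and 7.16-fold in Tconv). Transfer RNA genes were within 1 kb of 3 regions. For these gene segments and transfer RNA genes, too, no background over other regions was computed.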
